A study of Mus musculus with 12 samples.

Results

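The immediate early genes of the EGR, NR4A and AP-1 families were followed in CD8 T cells that carried or lacked Rroid2 during an infection. The 10 genes were taken by symbol: *Egr1*, *Egr2*, *Egr3*, *Nr4a1*, *Nr4a2*, *Nr4a3*, *Fos*, *Fosb*, *Jun* and *Junb*. They are 10 of the 55421 genes in the count table, and all 10 passed the filter on low counts that left 14460 genes for testing. RNA was sequenced from OT-I cells, CD8 T cells with a transgenic receptor for a peptide of ovalbumin, which were either Rroid2 knockout (KO) or Rroid2 wild type (WT). The cells had been moved into host mice, the hosts were infected with *Listeria monocytogenes* carrying ovalbumin (LM-OVA), and the OT-I cells were sorted from spleen. Short-lived effector cells (SLEC) were taken on days 7 and 14 and memory precursor effector cells (MPEC) on day 14, which gave 6 groups of 2 libraries: KO and WT SLEC day 7, KO and WT SLEC day 14, and KO and WT MPEC day 14. All groups share the infection, the transfer and the receptor, so no resting or unstimulated OT-I cells are among them. The sources used here do not say how Rroid2 was deleted, what the hosts were, or whether the 2 libraries of a group came from separate animals, so p-values measure only the spread between libraries. No gene in the table was matched to Rroid2 by name, so its level was not analysed here.

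Immediate early genes are transcribed within minutes of a signal by factors already present, without new protein synthesis. In T cells the antigen receptor reaches them through calcium and calcineurin, which free NFAT, and through ERK, which acts on the serum response factor. EGR proteins are zinc finger factors, NR4A proteins are nuclear receptors without a known physiological ligand, and FOS and JUN proteins pair to form AP-1, which binds DNA together with NFAT. Messages of this kind are short-lived, and several are also known to be induced while tissue is dissociated and cells are sorted.

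The promoters of *Fos*, *Fosb* and *Jun* are printed because these 3 genes had the highest Pearson correlations between members over the 12 libraries. Each run holds the 250 bases before the RefSeq start site of GRCm38.p6, read 5′ to 3′ on the gene's own strand, from chr12:85473640-85473889 (plus), chr7:19310046-19310295 (minus) and chr4:95052223-95052472 (minus). Capitals mark the letters of 3 motifs: the core of the cyclic AMP response element (CRE), the EGR site and the TATA box, which are spelled out after the sequences.
Fos promoter: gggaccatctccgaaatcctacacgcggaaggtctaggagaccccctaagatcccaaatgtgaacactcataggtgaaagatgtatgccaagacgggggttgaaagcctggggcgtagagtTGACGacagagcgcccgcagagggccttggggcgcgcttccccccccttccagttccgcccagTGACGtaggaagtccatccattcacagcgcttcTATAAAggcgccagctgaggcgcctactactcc
Fosb promoter: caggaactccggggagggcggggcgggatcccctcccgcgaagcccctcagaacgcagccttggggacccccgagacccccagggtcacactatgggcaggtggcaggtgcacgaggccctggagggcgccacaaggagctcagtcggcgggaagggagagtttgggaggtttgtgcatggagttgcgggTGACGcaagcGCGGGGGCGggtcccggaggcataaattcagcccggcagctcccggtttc
Jun promoter: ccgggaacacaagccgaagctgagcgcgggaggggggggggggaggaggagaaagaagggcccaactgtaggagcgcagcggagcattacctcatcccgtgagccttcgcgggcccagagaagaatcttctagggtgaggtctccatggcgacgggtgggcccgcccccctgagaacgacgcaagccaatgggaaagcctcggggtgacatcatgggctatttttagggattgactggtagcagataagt
RefSeq promoters were matched for 8 of the 10 members; *Egr1* and *Egr3* had no entry. With both strands searched, the CRE core TGACG lay in 6 of the 8 (*Fos*, *Fosb*, *Junb*, *Nr4a1*, *Nr4a2* and *Nr4a3*) and in 17.9% of 27025 promoters of the same length. The *Fos* window held it 2 times, the nearer copy 62 to 66 bases before the start and a TATA box, TATAAA, 28 to 33 bases before it. The EGR site GCGNGGGCG lay in 3 of the 8 (*Fosb*, *Nr4a1* and *Nr4a2*) against 4.65% of all, and the TATA box in 2 of the 8 (*Fos* and *Nr4a2*) against 13%. The whole CRE TGACGTCA, in which TGACG is contained, the AP-1 site TGANTCA, the NR4A site AAAGGTCA and the CArG box of the serum response factor were found in 0 of the 8 and in 1.62%, 6.87%, 1.31% and 1.4% of all promoters. No searched motif was matched exactly in the *Jun* window, which holds TGACATCA, a near spelling of the whole CRE. Such a match describes letters in a window and is not evidence of binding. Only exact spellings in the 250 bases before the start were searched. A motif not found here may lie outside them or be spelled otherwise inside them.

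Total counts ran from 7603551 to 14026594 per library, and levels are given as CPM, the count relative to the library size scaled by trimmed mean of M-values, on which 1 count was worth 0.0633 to 0.137 CPM. The 7 CD8 T cell markers summed to 3866 to 5450 CPM in every library, and *Cd4* to at most 1.06 CPM. The 5 SLEC markers summed to 230.4 to 274.7 CPM in MPEC and 3493 to 6270 CPM in SLEC, and the 5 MPEC markers to 1857 to 2449 CPM in MPEC and 71.0 to 541 CPM in SLEC. RNA of B cells, monocytes and neutrophils was highest in the WT SLEC day 14 libraries. The 10 B cell markers came to 257 and 1154 CPM there, against 1.67 to 120 CPM in the other 10 libraries. Monocyte and macrophage markers summed to 43.2 to 55.7 CPM there, against 6.73 to 29.6 CPM elsewhere, and neutrophil markers to 5.06 to 55.9 CPM against 0 to 4.76 CPM. Erythroid and platelet markers were instead highest in KO SLEC day 7 replicate 1, at 72.3 and 11.0 CPM. In bulk RNA, fewer cells of a type and less RNA per cell cannot be told apart.

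The 10 members together took 0.0229% to 0.0600% of a library's counts. Per kilobase of annotated exons, the mean level over the 12 libraries was highest for *Junb*, at 67.2 CPM per kilobase, followed by *Jun* at 31.6, *Fos* at 8.37, *Fosb* at 5.85 and *Egr1* at 5.55 CPM per kilobase. *Nr4a1*, *Nr4a3* and *Nr4a2* followed at 3.83, 3.24 and 2.79 CPM per kilobase, and *Egr3* and *Egr2* were lowest at 0.868 and 0.252. *Junb* was first and *Jun* second in all 6 groups. Within a gene the order of the 6 groups was seldom clear: of 50 neighbouring pairs in these orders, the libraries of 43 overlapped. The library with the most members at their highest level was WT SLEC day 7 replicate 1, with 4 members, and KO SLEC day 14 replicates 1 and 2 held the lowest level of 4 and 2 members.

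**Figure D1:**
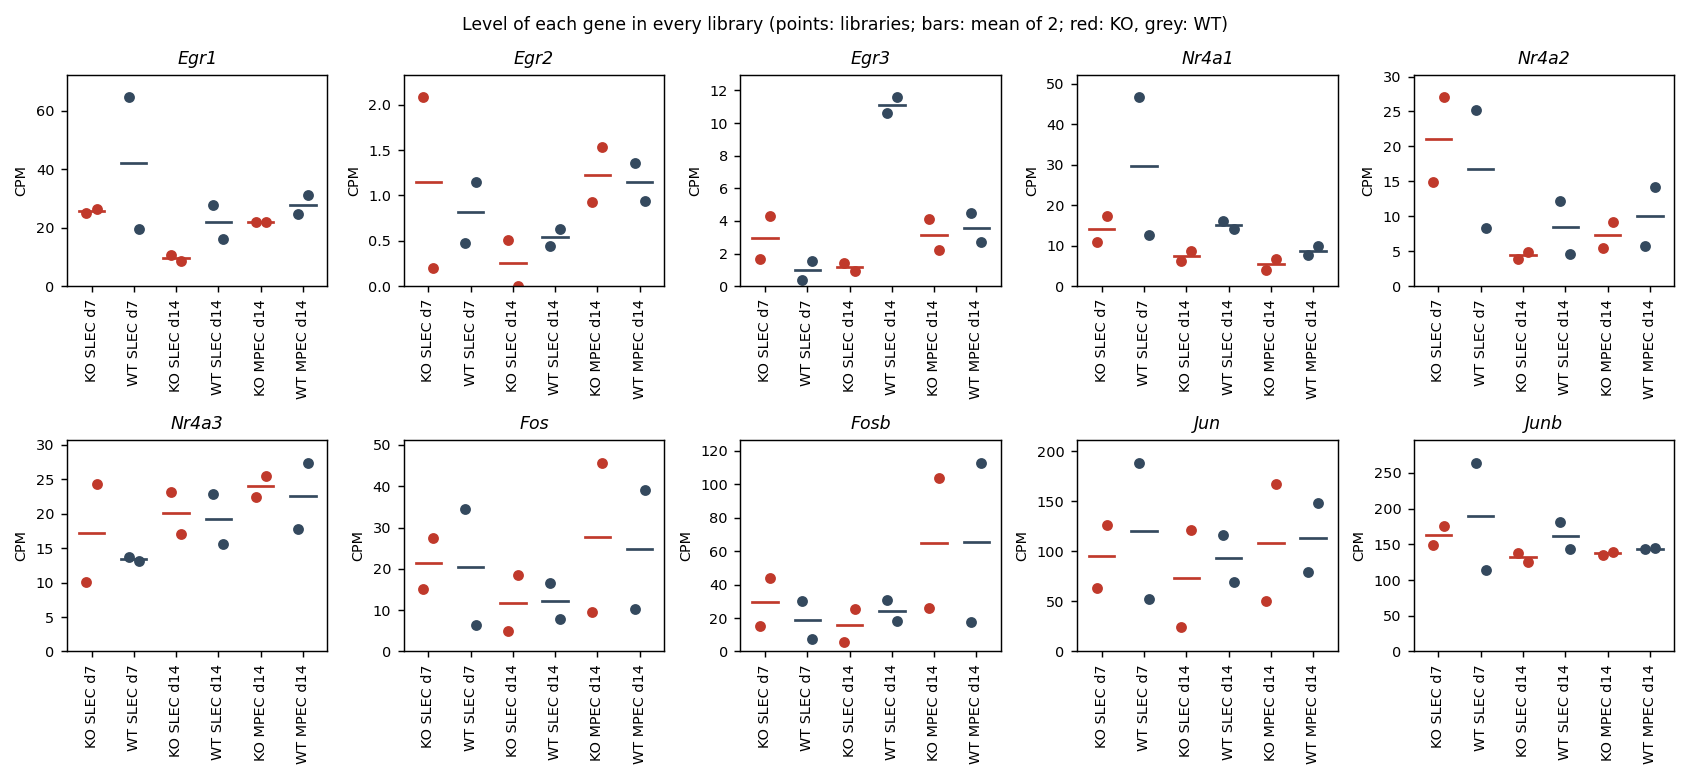
CPM of each gene (vertical axis, starting at 0, own scale per gene) in the 12 libraries, by group on the horizontal axis; points are libraries, bars the mean of 2, red KO and grey WT. *Egr3* is above 10 CPM in both WT SLEC day 14 libraries and below 5 CPM in the other 10, while *Fos*, *Fosb* and *Jun* spread widely within groups.

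*Egr3*, a zinc finger factor that with *Egr2* is known for restraining T cell activation, was the 1 member called between KO and WT cells in the fit without covariates. It lies at chr14:70077203-70082614 on the plus strand (GRCm38). In SLEC day 14 it had 14 and 7 counts (1.42 and 0.962 CPM) in the KO libraries, against 144 and 183 counts (10.6 and 11.6 CPM) in the WT libraries. Both KO libraries were below both WT libraries, with no overlap. *Egr3* fell by 3.17 ± 0.58 on the log2 scale (SE, 2 libraries per group; edgeR quasi-likelihood test, Benjamini-Hochberg adjusted p = 0.0224), a level 9.02-fold lower in KO. That is 1 of 10 members called, against 0.539% of the 14460 tested genes called and 0.47% called lower. The call was kept in 15 of 20 alternative analyses, and over all 20 the change lay between -3.52 and -2.48. It was lost without KO SLEC day 14 replicate 1 (adjusted p = 0.13 by edgeR), without KO SLEC day 14 replicate 2 (0.47) and without WT SLEC day 14 replicate 2 (0.097), with edgeR's older quasi-likelihood method (0.087), and with B cell RNA as a covariate. On simulated data the test gave more false calls than its threshold of 0.05 names, which bears on adjusted p-values near it.

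The WT SLEC day 14 libraries, which had the highest *Egr3*, also had the highest sums of B cell, dendritic cell, monocyte and neutrophil markers. The summed B cell markers were 6.46 and 13.8 CPM in KO SLEC day 14, against 257 and 1154 CPM in WT SLEC day 14. They were 5.10 to 16.3 CPM in KO SLEC day 7, 1.67 to 23.9 in WT SLEC day 7, 17.0 to 20.2 in KO MPEC and 18.5 to 120 in WT MPEC. All 10 markers had counts in both WT SLEC day 14 libraries, while 1 and 2 of the 10 were at 0 in KO SLEC day 14. Between the 2 WT SLEC day 14 libraries, replicate 2 had 4.48 times the B cell marker RNA of replicate 1 and 1.09 times its *Egr3*. In WT MPEC, replicate 1 had 6.5 times the B cell marker RNA of replicate 2 and 1.63 times its *Egr3*. With the log2 B cell sum as a covariate the KO SLEC day 14 change was -2.48 ± 1.06 (edgeR adjusted p = 0.68). With that covariate edgeR called 3 other members lower in KO SLEC day 14, beside 17 of 14460 genes: *Egr1* at -2.91 ± 0.47 (adjusted p = 0.013), *Nr4a1* at -3.16 ± 0.55 (0.018) and *Nr4a2* at -3.58 ± 0.55 (0.013). Dendritic cell markers summed to 0.137 to 0.809 CPM in KO SLEC day 14, against 2.78 to 3.75 CPM in WT SLEC day 14 and at most 0.845 CPM in any other library, and monocyte and neutrophil markers were highest in WT SLEC day 14 as well. Because the high sums belong to 1 group, the parts of group and of other cells' RNA cannot be told apart for *Egr3*. The same holds for *Egr1*, *Nr4a1* and *Nr4a2*, whose calls with the covariate cannot be read as KO effects with B cell RNA taken out. In every group the B cell sum was lower in the library with more *Fos*, so the covariate also follows differences between replicates. Over the 10 libraries outside WT SLEC day 14, Pearson's r between log2 *Egr3* and the log2 B cell sum was 0.657 and Spearman's rho 0.539, values that share each library's depth and scaling.

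**Figure D2:**
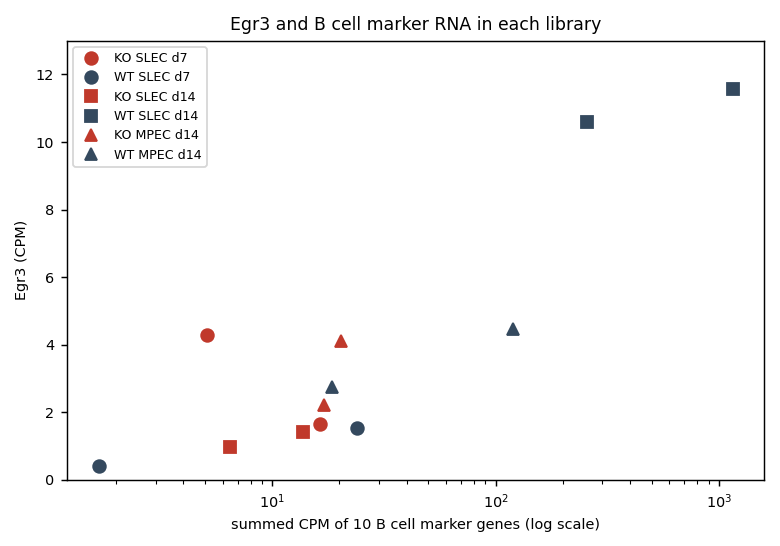
*Egr3* (CPM, vertical axis) against the summed CPM of 10 B cell marker genes (horizontal axis, log scale), 1 point per library, red KO and grey WT. Both WT SLEC day 14 libraries lie at the top right, with 10.6 and 11.6 CPM of *Egr3* and B cell sums of 257 and 1154 CPM.

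In the other populations *Egr3* was not called. In SLEC day 7 it had 1.64 and 4.29 CPM in KO and 0.397 and 1.54 CPM in WT, both KO libraries above both WT, for a fitted change of 1.5 ± 0.73 (edgeR adjusted p = 1). In MPEC it had 4.11 and 2.21 CPM in KO and 4.46 and 2.73 CPM in WT, which overlap (-0.23 ± 0.56, 95% interval -1.41 to 0.94). The KO effect on day 14 minus that on day 7 in SLEC was -4.68 ± 0.95, an unadjusted p of 1.2e-04 and an adjusted p of 0.25 by edgeR. DESeq2 called this difference (adjusted p = 0.0038), and so did edgeR without a filter on low counts (5.6e-04) and without WT SLEC day 7 replicate 2 (0.021). The KO effect in MPEC minus that in SLEC on day 14 was 2.94 ± 0.87 (edgeR adjusted p = 1).

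*Egr1*, a family member induced through ERK and the serum response factor (chr18:34859823-34864984, plus strand), had 10.7 and 8.8 CPM in KO SLEC day 14 against 27.7 and 16.1 CPM in WT SLEC day 14. In SLEC day 7 it had 25 and 26.3 CPM in KO and 64.7 and 19.7 CPM in WT, and in MPEC 22.1 and 21.9 CPM in KO and 24.7 and 31.1 CPM in WT. The KO libraries were below the WT libraries in both day 14 populations and overlapped them on day 7. The mean KO effect over the 3 populations was -0.73 ± 0.29 (95% interval -1.38 to -0.09), with an edgeR adjusted p of 0.55. Its SLEC day 14 effect was -1.14 ± 0.56 (edgeR adjusted p = 0.45), set against WT libraries with high B cell sums. With the B cell covariate it was -2.91 and called, but covariate and group cannot be told apart there. *Egr2* (chr10:67535475-67542188, plus strand) was near the limit of counting, with 0 to 28 counts per library, and its largest KO effect was -0.88 ± 1.45 in SLEC day 14. Its level of 0 counts in KO SLEC day 14 replicate 2 allows up to 0.412 CPM (3 counts, counting error only).

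Among the orphan nuclear receptors, *Nr4a1* (Nur77, widely used as a reporter of antigen receptor signals; chr15:101254269-101274795, plus strand) had a negative fitted KO effect in all 3 populations, without passing the test. It had 6.17 and 8.8 CPM in KO SLEC day 14 against 16.2 and 14.2 CPM in WT, and 4 and 6.81 CPM in KO MPEC against 7.70 and 9.89 CPM in WT. In SLEC day 7 it had 10.9 and 17.4 CPM in KO and 46.7 and 12.7 CPM in WT. The KO libraries lay below the WT libraries in both day 14 populations and overlapped them on day 7, where WT replicate 1 was the highest of the 4. The mean KO effect was -0.94 ± 0.35 (95% interval -1.71 to -0.17; edgeR adjusted p = 0.53). Its SLEC day 14 effect of -1.05 ± 0.61 (edgeR adjusted p = 0.54) was also set against WT libraries with high B cell sums. With the B cell covariate it was -3.16 and called, with the same limit as for *Egr1*. Without WT SLEC day 7 replicate 2, edgeR called the mean KO effect of *Nr4a1* (-1.16 ± 0.19, adjusted p = 0.0083) and of *Egr1* (-0.94 ± 0.15, 0.0068), while the calls over all genes were 59 of 15770, against 12 of 14460 with all libraries. The SLEC day 7 effects of *Nr4a1* (-1.74 ± 0.28, 0.0029), *Egr1* (-1.32 ± 0.25, 0.0078) and *Junb* (-0.69 ± 0.17, 0.043) were then called as well, with the comparison resting on WT SLEC day 7 replicate 1 alone and its spread taken from the other groups. Calls over all genes in SLEC day 7 were then 209 of 15770, against 4 of 14460 with all libraries. The other members of this family did not pass the test either: *Nr4a2* (Nurr1; chr2:57106830-57124003, minus strand) had a mean KO effect of -0.33 ± 0.42 and *Nr4a3* (Nor1; chr4:48045153-48086447, plus strand) of 0.16 ± 0.20. Over all libraries *Nr4a2* ranged from 3.95 to 27.0 CPM and *Nr4a3* from 10 to 27.4 CPM, and their KO and WT libraries overlapped in each population. The 95% interval of the mean *Nr4a3* effect was -0.26 to 0.59.

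The AP-1 members gave wide or small effects. *Fos* (chr12:85473890-85477273, plus strand), the partner that cannot pair with itself, had 5.06 and 18.6 CPM in KO SLEC day 14 against 16.6 and 7.78 CPM in WT. *Fosb* (chr7:19302696-19310051, minus strand), a close relative of *Fos*, had 5.97 and 25.6 CPM there against 30.5 and 18.5 CPM, and *Jun* (chr4:95049034-95052222, minus strand), the main partner of FOS, had 24.7 and 122 CPM against 117 and 69.6 CPM. For all 3 the KO and WT libraries overlapped in each population. The mean KO effects were 0.04 ± 0.69 for *Fos*, -0.02 ± 0.75 for *Fosb* and -0.26 ± 0.58 for *Jun*, and the 95% interval for *Fos*, -1.62 to 1.71, spans more than a doubling in either direction. *Junb* (chr8:84974484-84978718, minus strand), a JUN protein with weaker activating capacity, had 149 and 176 CPM in KO SLEC day 7 and 265 and 114 CPM in WT, the WT libraries on either side of the KO ones. It had 138 and 125 CPM in KO SLEC day 14 against 181 and 143 CPM in WT, and 136 and 139 CPM in KO MPEC against 144 and 145 CPM in WT. Its mean KO effect was -0.20 ± 0.17 (95% interval -0.58 to 0.19; edgeR adjusted p = 0.83). *Junb* shares 351 bases with *Prdx2* on the opposite strand and *Jun* shares 689 bases with the antisense gene *Junos*, which had 72 counts over all libraries; the sources used here do not give the strand setting of the counting, so reads of such overlaps cannot be assigned.

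As a group, 9 of the 10 members had a negative fitted KO effect in SLEC day 14, with a median of -0.80, beside -0.02 over all tested genes, of which 51.9% were negative. By edgeR 1 member and 12.5% of all genes had an unadjusted p under 0.05 in that comparison. Several members were high in the same library of a pair, so their signs are not independent. In SLEC day 14 4 members (*Egr1*, *Egr3*, *Nr4a1* and *Junb*) had both KO libraries below both WT libraries, which 25.7% of all tested genes also did. The WT SLEC day 14 libraries had the highest B cell sums, whose part in these differences was not tested. In MPEC 3 members (*Egr1*, *Nr4a1* and *Junb*) had both KO libraries below both WT libraries, beside 15.9% of all genes, and the median was -0.06. In SLEC day 7 the median was 0.17, and 1 member, *Egr3*, had both KO libraries above both WT, beside 11.2% of all genes. In SLEC day 7 edgeR called 0 of 10 members, beside 0.0277% of all genes; 0 members and 3.37% of all genes had an unadjusted p under 0.05, and DESeq2 called 0 members. In MPEC edgeR also called 0, beside 0.0138% of all genes; 0 members and 2.46% of all genes had an unadjusted p under 0.05, and DESeq2 called 0 members. For the mean of the 3 populations edgeR called 0 members, 2 had an unadjusted p under 0.05 and DESeq2 called 0, beside 0.083% of all genes called and 8.26% under the unadjusted limit. For the KO effect on day 14 minus day 7, edgeR called 0 members, 1 was under the unadjusted limit and DESeq2 called 1, beside 0.00692% of all genes called and 6.58% under that limit. For MPEC minus SLEC edgeR called 0 members, 1 was under that limit and DESeq2 called 0, beside 0% and 4.23% of all genes.

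**Figure D3:**
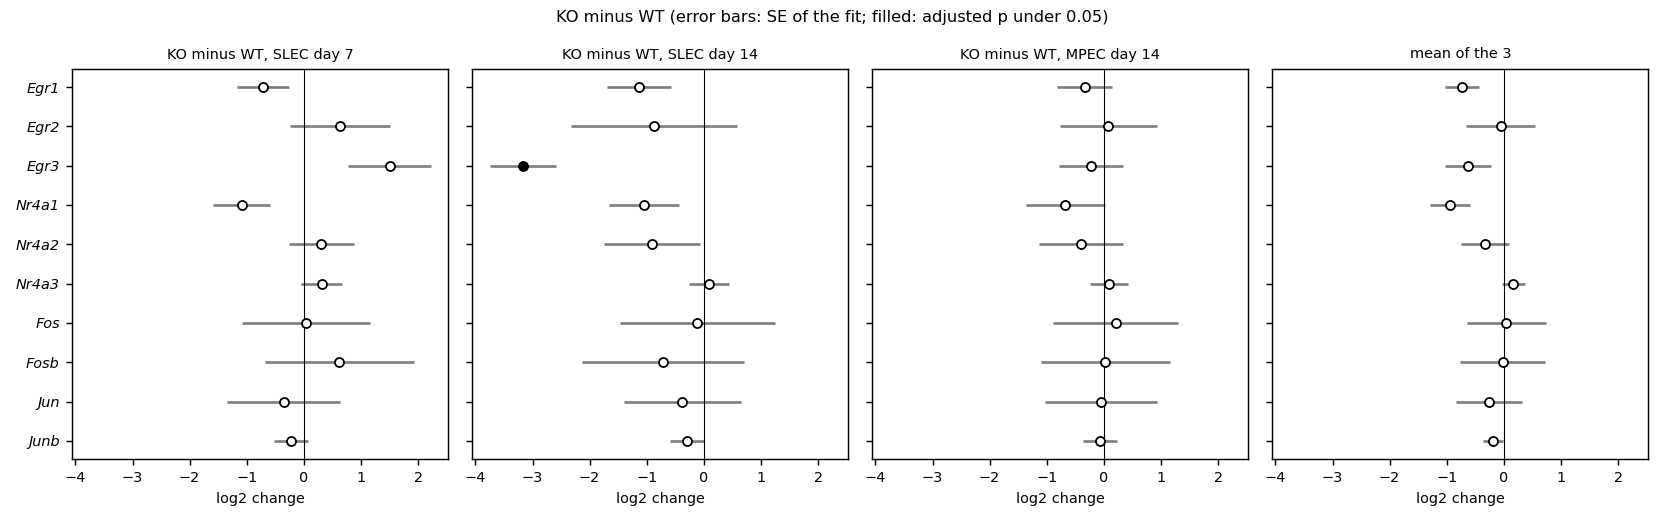
Fitted log2 change of KO minus WT (horizontal axis) for each gene (rows) in SLEC day 7, SLEC day 14, MPEC day 14 and as their mean; points are estimates, bars SE, and a filled point has an adjusted p under 0.05. The 1 filled point is *Egr3* in SLEC day 14, at -3.17, and the error bars of *Fos*, *Fosb* and *Jun* are the widest beside those of *Egr2*.

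Between day 7 and day 14 most members had a negative fitted change in SLEC of both genotypes, and *Egr3* rose in WT cells. In WT SLEC *Egr3* had 10.6 and 11.6 CPM on day 14 against 0.397 and 1.54 CPM on day 7, a rise of 3.49 ± 0.54 (edgeR adjusted p = 5.5e-04) that is 1 of 10 members called beside 9.94% of all tested genes, 4.69% called higher. It was called in 19 of 20 alternatives and not with B cell RNA as a covariate (2.75 ± 1.04, adjusted p = 0.17), and the day 14 libraries are those with the high B cell sums. In KO SLEC *Egr3* had 1.42 and 0.962 CPM on day 14 and 1.64 and 4.29 CPM on day 7 (-1.18 ± 0.77, edgeR adjusted p = 0.32). The change in KO minus that in WT is the same quantity as the difference of the KO effects above, -4.68 ± 0.95. In WT SLEC 1 member and 23.6% of all genes had an unadjusted p under 0.05 by edgeR. In KO SLEC edgeR called 0 of 10 members, beside 17.2% of all genes; 2 members and 30.9% of all genes had an unadjusted p under 0.05, and DESeq2 called 2, *Egr1* and *Nr4a2*. *Nr4a2* had 3.95 and 4.95 CPM in KO SLEC day 14 against 15.0 and 27.0 CPM in KO SLEC day 7, with no overlap (-2.23 ± 0.76, edgeR adjusted p = 0.074; DESeq2 0.0012). *Egr1* had a fitted change of -1.38 ± 0.56 in KO (edgeR adjusted p = 0.13; DESeq2 0.0065). In KO 5 members had both day 14 libraries below both day 7 libraries, beside 29% of all genes, and the members' median was -0.94 against -0.01 over all genes; in WT 0 members did, beside 24.3%, with medians of -0.48 and 0.01. *Egr3* and *Nr4a3* had both WT day 14 libraries above both day 7 libraries, 2 members beside 27.1% of all genes. Leaving out WT SLEC day 7 replicate 2 brought the calls in WT to 4 members, beside 903 of 15770 genes, with *Egr1* at -1.56, *Nr4a1* at -1.61 and *Junb* at -0.69.

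Between MPEC and SLEC on day 14, *Egr3* fell in WT cells. It had 4.46 and 2.73 CPM in WT MPEC against 10.6 and 11.6 CPM in WT SLEC, with no overlap (-1.59 ± 0.42, edgeR adjusted p = 0.024; 1 of 10 members called, beside 7.96% of all genes called and 4.3% called lower). In WT 1 member and 21.1% of all genes had an unadjusted p under 0.05. *Egr2* had both WT MPEC libraries above both WT SLEC libraries, beside 28.2% of all genes, and *Egr3* and *Nr4a1* had both below, beside 29.1%. The *Egr3* call was kept in 13 of 20 alternatives. It was lost with DESeq2 (adjusted p = 0.11), with edgeR's older method (0.15), with the B cell covariate (-1.19 ± 0.62, 0.35), and without WT SLEC day 14 replicate 1 (0.066) or replicate 2 (0.15) or WT MPEC replicate 1 (0.078) or replicate 2 (0.26). In KO cells 0 members and 17.2% of all genes had an unadjusted p under 0.05 by edgeR. After adjustment edgeR called 0 of 10 members in KO, beside 5.11% of all genes, and DESeq2 called 0 members. There *Egr1*, *Egr2*, *Egr3*, *Nr4a2* and *Fosb* had both MPEC libraries above both SLEC libraries, 5 members beside 23.5% of all genes, and 0 members had both below, beside 23.2%. *Egr3* had 4.11 and 2.21 CPM in KO MPEC against 1.42 and 0.962 CPM in KO SLEC (1.35 ± 0.77, edgeR adjusted p = 0.40). *Fosb* had the largest fitted change of the 10 in KO, 2.13 ± 1.36, with 25.9 and 104 CPM in MPEC and 5.97 and 25.6 CPM in SLEC, so the nearest libraries of the groups differed little.

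**Figure D4:**
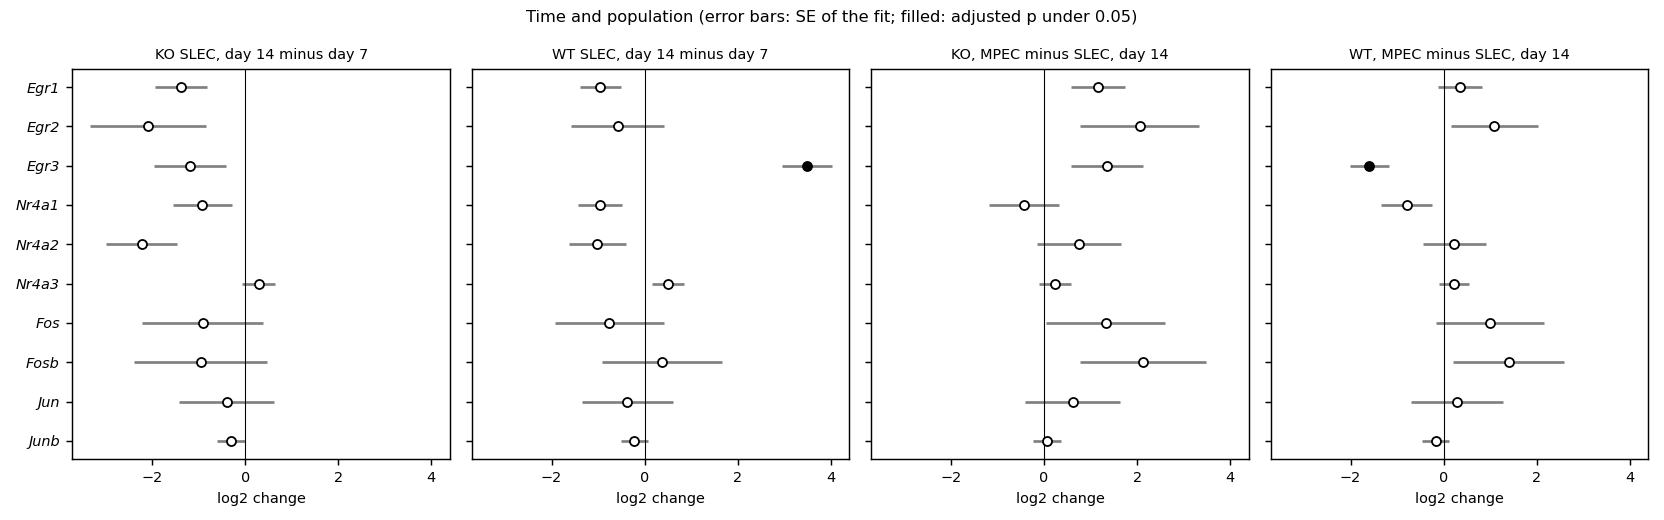
Fitted log2 change of day 14 minus day 7 in SLEC and of MPEC minus SLEC on day 14 (horizontal axis), by genotype, for each gene (rows); points are estimates, bars SE, and a filled point has an adjusted p under 0.05. The 2 filled points are *Egr3* in WT cells, at 3.49 for time and -1.59 for population.

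The spread between replicate libraries was widest for *Fosb*, *Fos* and *Jun* among the members. The 2 libraries of a group differed in *Fos* by a median of 3.66-fold over the 6 groups, in *Fosb* by 3.97-fold and in *Jun* by 2.56-fold. Among all tested genes these medians stood at percentiles of 99.2 for *Fos*, 99.4 for *Fosb* and 96.0 for *Jun*. In KO MPEC *Fos* had 9.45 CPM in replicate 1 and 45.7 in replicate 2, and *Jun* 50.6 and 167 CPM; in WT MPEC *Fos* had 10.3 and 39.2 CPM and *Fosb* 17.6 and 113 CPM. *Junb*, the most abundant member, differed by a median of 1.14-fold (0.19 on the log2 scale), and the median over all tested genes was 0.32 on the log2 scale. Among genes of like abundance (mean within 0.5 on the log2 scale), *Fos*, *Fosb* and *Jun* stood at percentiles of 99.6, 99.9 and 99.9, *Nr4a2* at 98.0, *Nr4a3* at 91.5, *Nr4a1* at 91.3, *Egr3* at 78.0, *Egr1* at 72.1, *Junb* at 70.9 and *Egr2* at 45.9.

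The same library of each pair was high for several members. *Fosb*, *Jun*, *Nr4a1* and *Nr4a2* were higher in the library with more *Fos* in 6 of 6 groups, *Nr4a3* and *Junb* in 5, *Egr1* in 4, and *Egr2* and *Egr3* in 1. Of all tested genes, 2.94% followed *Fos* in all 6 groups. Over the 12 libraries Pearson's r of log2 CPM was 0.916 between *Fos* and *Jun* (Spearman's rho 0.93), 0.897 between *Fos* and *Fosb* (0.867) and 0.822 between *Fosb* and *Jun* (0.79). Without the 2 libraries farthest from the median of the first gene these were 0.899, 0.819 and 0.742. These points share libraries, depth and scaling, and are given as a description. *Egr1* went with *Nr4a2* (r 0.786) and *Junb* (0.769), while *Egr3* correlated with no other member above 0.346. Beside this spread, the library with more *Fos* had the higher sum of CD8 T cell markers in 6 of 6 groups, the lower B cell sum and fewer detected genes in 6 of 6, the higher mitochondrial share and heat shock sum in 5 of 6, and the higher total count in 2 of 6. The heat shock sums were 3793 and 2565 CPM in the KO MPEC libraries with more and less *Fos*, and 3803 and 2960 CPM in those of WT MPEC. In the same order they were 3226 and 2016 CPM in KO SLEC day 7, and 2396 and 2231 CPM in KO SLEC day 14. In WT SLEC day 14 they were 2331 and 2253 CPM. WT SLEC day 7 went the other way, with 2288 and 2558 CPM. The part of these measures in the spread of *Fos* was not tested.

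**Figure D5:**
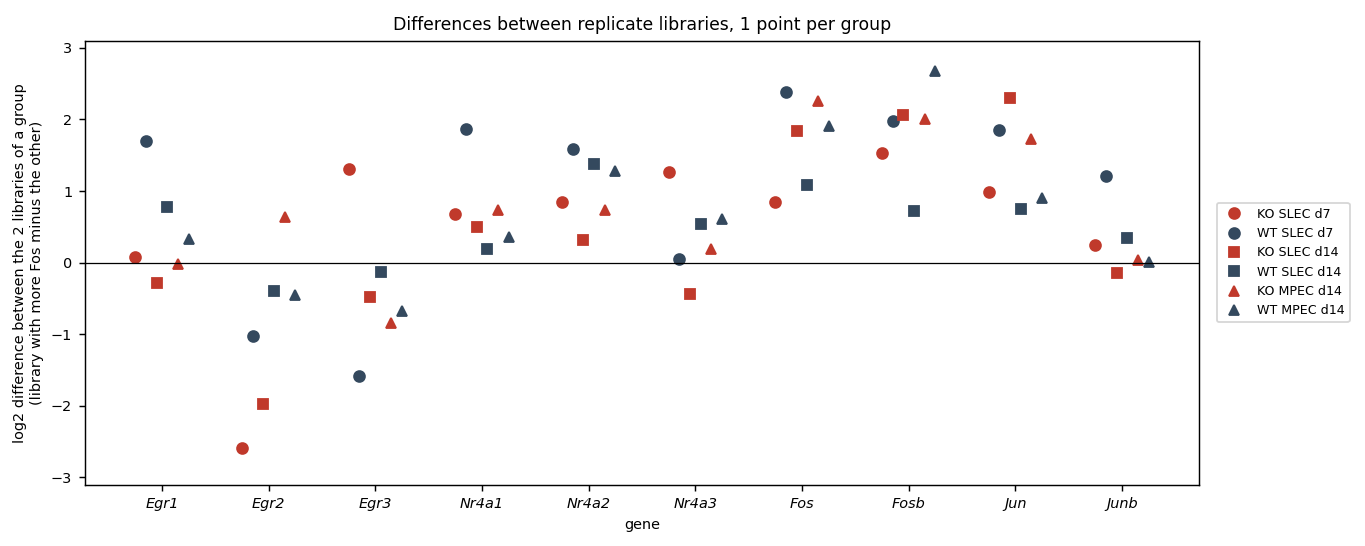
Difference on the log2 scale between the 2 libraries of a group (vertical axis, library with more *Fos* minus the other) for each gene (horizontal axis); 1 point per group, red KO and grey WT, circles SLEC day 7, squares SLEC day 14, triangles MPEC. All 6 points lie above 0 for *Fosb*, *Jun*, *Nr4a1* and *Nr4a2*, and 5 of 6 lie below 0 for *Egr2* and *Egr3*.

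Other genes of the pathway were read from 6 lists with 119 genes, of which 109 were tested: other AP-1 and bZIP partners (8 tested), other immediate early genes and feedback inhibitors (35), receptor-to-nucleus signalling (25), co-regulators and known targets of EGR and NR4A (16), receptor-induced cytokines and activation genes (14) and heat shock genes (11). In each of the 4 KO effects edgeR called 0 of the 109 genes. At an unadjusted p under 0.05 there were 14 in SLEC day 14, 1 in SLEC day 7, 1 in MPEC and 7 in the mean, beside 12.5%, 3.37%, 2.46% and 8.26% of all tested genes. DESeq2 called 1, *Tnf* in SLEC day 14, which it also called for the KO effect on day 14 minus day 7. The smallest p-values in SLEC day 14 belonged to the cytokine gene *Tnf* (-2.06 ± 0.53, edgeR adjusted p = 0.0795), the chemokine gene *Ccl3* (-1.42 ± 0.39, 0.0962), *Irf4*, a factor graded by receptor signal strength (-1.28 ± 0.36, 0.11), and *Nfkbid*, a nuclear inhibitor of NF-κB (-1.02 ± 0.29, 0.13). The NFAT gene *Nfatc1* had 0.49 ± 0.15 (0.15). In the list of other immediate early genes the median KO effect in SLEC day 14 was -0.18, with 24 of 35 negative and 14 of 35 lower without overlap, and in the signalling list it was 0.12, with 19 of 25 positive. Of all tested genes 51.9% were negative and 25.7% lower without overlap in that comparison. Its WT libraries had the highest B cell, dendritic cell, monocyte and neutrophil sums. The part of other cells' RNA in these differences was not tested.

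From day 7 to day 14 edgeR called 24 of the 109 genes in KO SLEC (12 higher, 12 lower; 22.0%, beside 17.2% of all genes) and 13 in WT SLEC (8 higher, 5 lower; 11.9%, beside 9.94%). *Bach2*, a repressor that competes for AP-1 sites, rose by 1.94 ± 0.24 in KO and 1.61 ± 0.22 in WT, and *Batf*, an AP-1 partner of effector cells, fell by 1.13 ± 0.20 and 0.88 ± 0.19 (edgeR adjusted p at most 0.0069 for the 4). *Nfatc1* rose in both genotypes (1.06 ± 0.16 in KO and 0.54 ± 0.15 in WT), and *Gadd45b*, a stress-response gene, fell in both (-1.39 ± 0.25 and -0.77 ± 0.22). *Tnf* fell by 2.63 ± 0.51 in KO. The gene of the EGR corepressor *Nab1* fell by 0.53 ± 0.16 in KO.

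Between MPEC and SLEC edgeR called 11 of the 109 genes in KO (9 higher, 2 lower; 10.1%, beside 5.11% of all genes) and 18 in WT (12 higher, 6 lower; 16.5%, beside 7.96%). *Myc*, a growth factor-induced early gene, was higher in MPEC by 4.12 ± 0.45 in KO and 2.75 ± 0.37 in WT, and *Dusp10*, a phosphatase of JNK and p38, by 1.14 ± 0.24 and 0.95 ± 0.22. *Bhlhe40*, a repressor induced by activation, was lower in MPEC of both genotypes (-2.15 ± 0.38 in KO and -2.28 ± 0.38 in WT). *Nab2*, an EGR corepressor that EGR proteins themselves induce, fell by 1.28 ± 0.31 in WT MPEC (edgeR adjusted p = 0.016). Its KO effect in SLEC day 14 was -0.098 ± 0.29, where that of *Egr3* was -3.17. A link between these genes was not tested. The chemokine genes *Ccl3* and *Ccl4* fell by 2.08 ± 0.39 and 1.72 ± 0.41 in WT MPEC. *Ccr7*, *Tox* and *Dgka* rose in MPEC of both genotypes, *Ccr7* by 4.39 ± 0.53 in KO and 2.88 ± 0.38 in WT; *Ccr7* also serves as an MPEC marker here. Both WT comparisons use the WT SLEC day 14 libraries with the high B cell sums, whose part in these changes was not tested.

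The members' mean pattern over the 12 libraries, the average of their standardised log2 CPM, was highest in WT SLEC day 7 replicate 1 (0.798) and lowest in KO SLEC day 14 replicate 1 (-0.952). The 10 genes most like it, chosen among genes whose log2 CPM averaged at least 3, had Pearson's r of 0.797 to 0.878 over the 12 libraries. They were *Itm2a*, *Gorab*, *Ifrd1*, *Ppp1r15a*, *Dusp1*, *Snupn*, *Impdh2*, *Dnajb9*, *Per1* and *Chmp1b*. *Ppp1r15a*, a phosphatase subunit of the stress response, had r of 0.865 and *Dusp1*, a phosphatase of MAP kinases, 0.857. Outside the members, an r of 0.8 or more was reached by 18 genes. The 14460 tested genes include the members.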

How the data were processed

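RNA-seq of 12 libraries in 6 groups of 2 was analysed from raw read counts per gene, the unit in which the authors deposited the table. Per the submitters' processing notes, bcl2fastq and STAR 2.6.1a were the tools and GRCm38 the genome build; per the labels' protocols, libraries were made with a stranded SMART-Seq kit. What counted the reads, with which annotation and strand rule, was not given in the sources used here. Genes were filtered with filterByExpr (14460 of 55421 kept, holding at least 99.7% of each library's counts), scaled by trimmed mean of M-values and fitted with edgeR 4.0.16 in R 4.3.3 (quasi-likelihood, 1 coefficient per group, robust, 6 residual degrees of freedom). The 10 comparisons were adjusted by Benjamini-Hochberg over all genes and called under 0.05; tests are two-sided. Log2 CPM used a prior count of 2. The fit was tested on simulated data, which gave more false calls than the threshold names, so edgeR's older method was added as an alternative. Other alternatives were DESeq2 1.42.0, other scalings, no filter, a replicate block, fits on the compared groups, a B cell covariate and leaving out each library.

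Named genes were all 10 members, from each of 6 pathway lists up to 4 called genes with the smallest adjusted p or, with none called, up to 2 with the smallest p, and the 10 genes most like the members' mean pattern; not all are printed. Positions and exon lengths come from GENCODE M21 (98.5% of identifiers matched, all 10 members). The members and lists were chosen with earlier results of these data known. Of the 12 marker lists, those of CD8 and CD4 T cells, SLEC, MPEC, B cells, monocytes, neutrophils and dendritic cells are given with the results. Plasma cell markers summed to 31.9 to 60.4 CPM, NK cell markers to 10.7 to 219.5, erythroid markers to 0 to 72.3 and platelet markers to 2.36 to 11.0 CPM.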

Additional observations from a re-analysis of the deposited data

Results flagged for a closer look

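*Egr3* had both KO libraries above both WT libraries in SLEC day 7 and both below in SLEC day 14. In SLEC day 7 the nearest libraries had 22 counts in KO and 20 in WT. The fitted effect there was not called (1.5 ± 0.73, 95% interval -0.03 to 3.03), so only the fitted signs were opposite. The SLEC day 14 effect minus the SLEC day 7 effect was -4.68 ± 0.95 (SE), with an unadjusted p of 1.2e-04 and an adjusted p of 0.25 by edgeR. The same quantity is the change from day 7 to day 14 in KO minus that in WT, where both KO libraries were lower and both WT libraries higher on day 14. Between MPEC and SLEC on day 14, *Egr3* was higher in both KO MPEC libraries and lower in both WT MPEC libraries, with a difference of 2.94 ± 0.87 (unadjusted p of 0.0032; adjusted p of 1 by edgeR). All 3 contrasts use the WT SLEC day 14 libraries, which had the highest *Egr3* and the highest B cell marker sums.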

How the results depend on the processing

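Of 1996 member changes under alternatives, 1785 kept their direction and side of the threshold, 44 gained a call, 13 lost one, 152 changed sign without a call and 2 reversed. The reversals were of *Nr4a2* with the B cell covariate, 2.19 for day 14 against day 7 in WT SLEC and -1.45 for MPEC against SLEC in WT. Counts of members called also moved, given here with all genes called. In KO SLEC day 14 (1; 78 of 14460 genes) they were 2 without a filter (506 of 32855), 3 with the covariate (17 of 14460) and 0 with the older method (13). For the mean KO effect (0; 12) they were 2 without a filter (167 of 32855) and 3 with the covariate (16). For its day 14 minus day 7 difference (0; 1) they were 1 with DESeq2 (28 of 16278), 1 without a filter (109) and 1 with the covariate (1). For day 14 against day 7 in KO (0; 2487) they were 2 with DESeq2 (2845 of 13823), no filter (2525), the covariate (2870) or the compared groups only (2194 of 12473), and 1 with library totals (2201) or the older method (2504). In WT (1; 1437) they were 3 without a filter (1732). For MPEC against SLEC in KO (0; 739) they were 1 without a filter (991), with the compared groups only (1087 of 12296) and with the covariate (836). In WT (1; 1151) they were 0 with DESeq2 (1089) and the older method (788), and 2 with the covariate (681) and the compared groups only (1998 of 13258). The causes were not tested.

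Leaving out 1 library gave 0 to 3 called members for KO SLEC day 7 (2 to 209 of all genes), 0 to 1 for KO SLEC day 14 (2 to 223), 0 for KO MPEC (2 to 4), 0 to 2 for the mean (7 to 59), 0 to 1 for the day 14 minus day 7 difference (0 to 96) and 0 for MPEC minus SLEC (0 to 4). It gave 0 to 2 for time in KO (834 to 2930), 1 to 4 in WT (417 to 1563), and 0 to 1 for population in KO (249 to 982) and in WT (277 to 1470). Where that leaves 1 library in a group, its spread is assumed like that of the others. In KO SLEC day 14 the 2 calls over all genes came without KO SLEC day 14 replicate 2 and the 223 without WT SLEC day 14 replicate 1, and DESeq2 called 240.

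Replicate numbers were shared between groups, and the sources used here do not say whether same-numbered libraries were paired. The correlation of same-numbered deviations was -0.133 to 0.117. It cannot decide this, because replicate libraries also differed in RNA of other cells. With the replicate block *Egr3* in KO SLEC day 14 was -3.17 (adjusted p = 0.017), and no member call changed in any comparison, while 130 genes in all were called there against 78. With scaling by library totals the median change of all genes reached 0.22 on the log2 scale (day 14 against day 7 in WT). It was 0.012 there with the trimmed mean of M-values. Under other scalings 8 of 120 group levels moved by more than their SD. Averaging the KO effect over SLEC day 7 and MPEC alone, chosen after seeing the data as was the older method, called 0 members and gave *Egr3* 0.64 ± 0.47. With 2 libraries per group, KO effects of *Fos*, *Fosb* and *Jun* within their wide intervals could not be told from 0.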
